A study of Drosophila melanogaster with 3 samples.

Results

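Long stretches of the Drosophila melanogaster genome in which no ORC2 site was found in both ChIP replicates are described here. They were chosen by 1 rule, applied to the authors' series list of ORC2 peaks. An interval runs from the end of one peak to the start of the next peak on the same arm (2L, 3L, 3R or X), and intervals of 75 kb or more were kept. The rule kept 316 of the 4087 intervals between consecutive peaks on these arms (7.73%). Over every chromosome and scaffold the series list holds 5147 such intervals. The cells are Kc167, an embryo-derived line of female sex and genotype se/e, grown as asynchronous cultures with no treatment. The labels name 2 ORC2 ChIP samples from separate extractions, made with a crude rabbit polyclonal serum against the whole Drosophila ORC2 protein, and 1 input DNA sample, which was not analysed here. Kc167 is a single line, so nothing here speaks to other cells.

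ORC, the origin recognition complex, binds chromatin before S phase and loads the Mcm2-7 helicase, which makes a place able to start DNA replication. ORC2 is a core subunit of the complex. In metazoans ORC shows little sequence preference and is found mostly at open chromatin, often near active promoters. DNA between sites is copied by forks that arrive from origins on either side, and in the polytene salivary gland chromosomes of Drosophila larvae under-replicated domains are known to be poor in ORC.

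The files give, for each peak, its limits on FlyBase release 5 and a score that is the authors' own value with no stated unit. Replicate 1 has 8970 peaks and replicate 2 has 6593. The series list has 5159 peaks, called joined peaks here. Each shared peak of either replicate, meaning a peak that overlaps a peak of the other replicate by at least 1 bp, overlapped a joined peak. The depth of either library is unknown, so the larger number of peaks in replicate 1 cannot be set against it. The authors' scores were read as percentiles within an arm and list, because no source used here says whether scores on different chromosomes share a scale. Because the joined list chose the intervals and both replicates feed that list, the values below are descriptions with counting intervals and carry no test. Exact 95% Poisson or binomial intervals cover the counting error of peaks only, and peaks that lie close together are not independent.

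The 316 long intervals made up 43.9 Mb, or 44.9% of the 97.8 Mb of the 4 arms. All 4091 joined peaks of these arms therefore lay in the other 53.9 Mb, at 75.9 peaks per Mb, against 41.8 per Mb over whole arms. The median length was 119 kb, with the middle 50% of intervals between 90.3 and 163 kb. Most intervals were shorter than 150 kb, with 106 (33.5%) of 75 to 100 kb and 112 (35.4%) of 100 to 150 kb. A further 54 measured 150 to 200 kb, 33 measured 200 to 300 kb and 11 were longer than 300 kb. Those 11 held 8.87% of the interval length. Just inside the threshold were intervals of 75072 bp on X, 75475 bp on 2L and 75518 bp on 3L. Just outside it were 74905 bp on X, 74701 bp on 3L and 74669 bp on X. The number of intervals therefore depends on where the threshold stands.

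**Figure D1:**
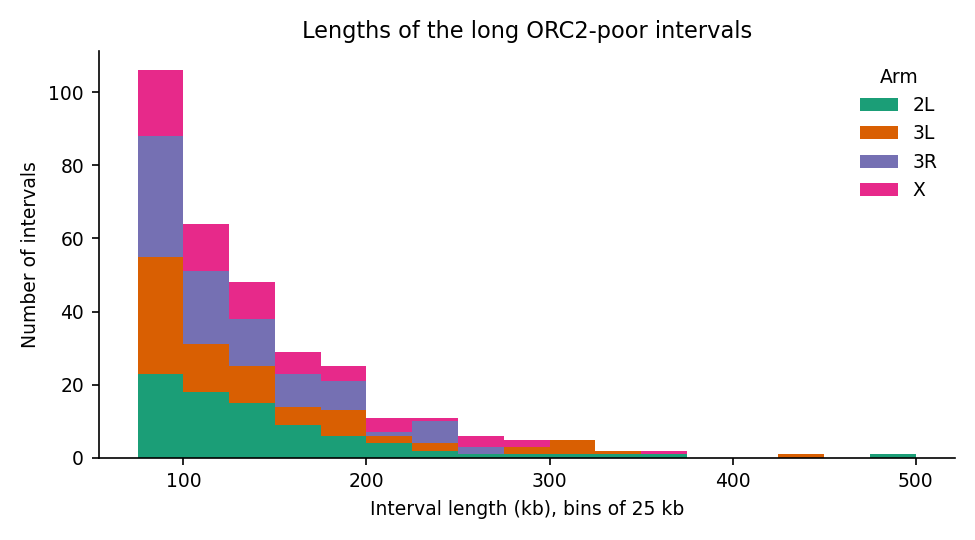
Number of long intervals (y axis) by length in bins of 25 kb (x axis), stacked by arm. The counts fall with length from 106 intervals of 75 to 100 kb, and the 2 longest, at 447 and 488 kb, stand apart at the right.

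The arms differed in how much of their length lay in long intervals. On 2L, 83 intervals took up 11.9 Mb, which is 52.0% of the arm. On 3L, 79 intervals took up 11.2 Mb (45.7%), and on 3R, 92 intervals took up 12.0 Mb (43.0%). X had 62 intervals over 8.80 Mb (39.2%). Per 10 Mb of arm this was 36.1 intervals on 2L, 32.2 on 3L, 33.0 on 3R and 27.7 on X. In the joined list X was thus lowest by number and by share of length. This order was not kept in the single lists, where the same threshold gave 31.6% of X, 36.1% of 2L, 31.8% of 3L and 29.8% of 3R in replicate 1, and 36.1% of X, 41.8% of 2L, 35.2% of 3L and 35.6% of 3R in replicate 2. The joined-list intervals of X were not shorter, with a median of 126 kb against 125 kb on 2L, 112 kb on 3L and 109 kb on 3R. Typical spacing was also shortest on X, where the median over all intervals between joined peaks was 6.17 kb, against 9.17 kb on 2L, 9.85 kb on 3L and 9.03 kb on 3R. Outside the long intervals the joined peaks stood at 83.5 per Mb on X, 77.4 on 2L, 72.8 on 3R and 70.6 on 3L. The arms are single chromosomes of 1 cell line and not replicates, so these differences are given without a test.

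Long intervals were found along the whole of each arm. Each arm was divided into 10 equal parts, counted from the end away from the centromere, and every part of all 4 arms had at least 4 interval midpoints. Coverage by long intervals over the 4 arms was 38.1% in part 1, between 33.4% and 50.3% in parts 2 to 9 and 60.4% in part 10, beside the centromere. This last value was not shared by all arms. It was 81.6% on 3L and 68.3% on X, but 52.8% on 2L, where part 7 reached 73.8%, and 41.5% on 3R. On 3R part 2 was the most covered, at 66.1%. On 3L part 1 had 21.4%, the lowest of that arm. Of the 40 parts, part 8 of X had the lowest coverage, at 19.5%. In the 3 Mb beside the centromere of each arm, long intervals covered 75.6% on 3L, 64.3% on X, 54.2% on 2L and 39.8% on 3R. These 12.3% of the arms' length held 16.0% of the interval length. An arm was measured up to its last peak end in any file, so sequence beyond the last peak is not counted. Beside the centromere thus means the centromere-side end of the arm so measured, whose distance to the centromere is not given here. The stretches before the first and after the last joined peak of an arm are not intervals by the rule. The longest of them, 132 kb, was at the outer end of 3L.

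**Figure D2:**
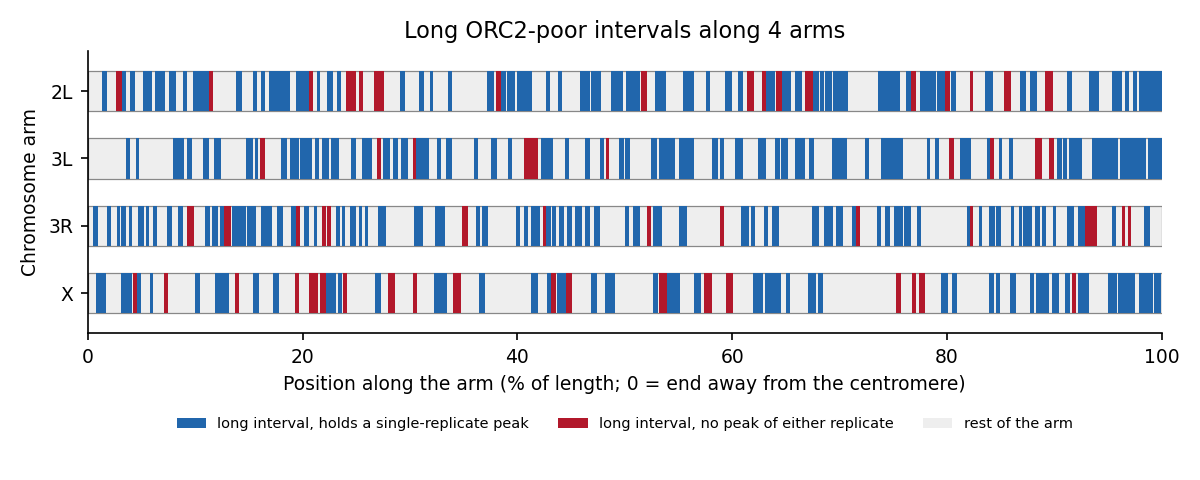
Long intervals drawn to scale along 4 arms, with position as a percentage of arm length from the end away from the centromere (x axis). Blue intervals hold at least 1 single-replicate peak and the 61 red ones hold none, and coverage beside the centromere is 81.6% on 3L and 41.5% on 3R.

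The spacing of neighbouring long intervals varied widely. Another long interval followed directly at 88 of the 631 interval ends with a further joined peak (13.9%). Among all intervals between joined peaks, 7.73% were long. Whether the spacing differs from random placement was not tested. The stretch between one long interval and the next had a median of 98.2 kb (interquartile range 29.8 to 243 kb). In 40 runs, consecutive long intervals were separated by single joined peaks, 44 in all, and these runs took in 84 of the 316 intervals. The run with the most intervals lay on 2L from 2242461 to 2677690, where 4 long intervals in a row spanned 435 kb with 3 joined peaks between them. Replicate 1 had 9 further peaks there and replicate 2 had 2. The widest such run, on 3L from 23573983 to 24168637, was 595 kb with 1 joined peak, and held 7 single-replicate peaks of replicate 1 and 8 of replicate 2. When long intervals less than 10 kb apart were chained, 97 intervals fell into 44 chains, and 1 of them, on 3L from 22942076 to 23530494, spanned 588 kb with 4 joined peaks. In contrast, the longest stretch between neighbouring long intervals was 1519 kb on X (15343590 to 16862837), with 96 joined peaks. It was followed by 1201 kb on 3R (5062064 to 6262994), with 73. On 3L and 2L the longest such stretches were 771 and 754 kb. Arm ends were left out of this measure, and on 3L the first long interval began only at 872951.

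The lengths can also be read as the distance that DNA lies from a site. Bases more than 25 kb from any joined peak, counting only those between 2 peaks, made up 31.3% of the arms, those more than 50 kb away 14.2% and those more than 100 kb away 3.11%. For distances above 50 kb the share was 17.4% on 2L, 15.4% on 3L, 12.9% on X and 11.5% on 3R. By each list alone, 8.22% of the arms was more than 50 kb from a replicate 1 peak and 10.2% was more than 50 kb from a replicate 2 peak. With the peaks of both lists pooled it was 6.16%. Only 0.389% of the arms, 0.380 Mb, was more than 100 kb from every peak of either list.

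The 10 longest intervals measured 309 to 488 kb, and 4 of the 10 lay in the last 10% of an arm beside the centromere. The longest, 488 kb on 2L (22473152 to 22960947), is bounded on its right by the last peak of the arm. It held 9 replicate 1 peaks and 7 replicate 2 peaks, none of them overlapping, and its longest stretch free of any peak was 74.9 kb. Its left flank had a score of 1.56, at percentile 1.35 of the joined peaks of 2L, with 1.63 in replicate 1 and 1.5 in replicate 2. Its right flank had 2.97 in both replicates and stood at percentile 57.7. Both bounding peaks were of ordinary width, 203 and 273 bp.

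The next longest, 447 kb on 3L (23573983 to 24021341), held 6 peaks of replicate 1 and 5 of replicate 2. Its flanks scored 2.44 and 2.37, in the lower part of the arm at percentiles 25.7 and 21.9. At the left flank the replicates differed, with 3.01 in replicate 1 and 1.87 in replicate 2. At the right flank they gave 2.22 and 2.53.

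On 2L, 372 kb between 16889063 and 17260646 held 1 replicate 1 peak of 2 bp and 2 replicate 2 peaks of 7 and 16 bp. Low-scoring peaks bounded it, at percentiles 5.80 and 18.4, with 1.83 and 2.11 in replicate 1 and 1.77 and 2.12 in replicate 2. Unlike the pair beside the centromere, this interval lay 5.70 Mb from the end of its arm.

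On X, the longest interval was 362 kb (21495671 to 21857530). Its only replicate 1 peak was 0.460 kb from the right end, so 361 kb had no replicate 1 peak at all, while replicate 2 had 2 peaks of 97 and 51 bp. The left flank was at percentile 38.7, with 2.38 in replicate 1 and 2.91 in replicate 2. The right flank was at percentile 89.8, with 4.48 and 4.54. On 3L, 332 kb (13506523 to 13838478) held 3 replicate 1 peaks of 3 to 17 bp and none of replicate 2. Its right flank was 657 bp wide with 4.78 in replicate 1 and a mean of 4.48 over 2 peaks in replicate 2, at percentile 89.3 of the joined list, and its left flank was at percentile 51.7, with 2.84 and 3.21.

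The rest of the 10 were 325 kb on 2L (3872555 to 4197716), 323 kb on 3L (17009185 to 17332389), 318 kb on 2L (9176473 to 9494748), 313 kb on 3L (9961621 to 10275075) and 309 kb on 3L (22401187 to 22710281). None of the 10 was on 3R, where the longest interval measured 270.1 kb. The 318 kb interval on 2L had the most replicate 1 peaks of any, 11 against 1 peak of replicate 2. Those 11 peaks were 5 to 146 bp wide and 2 of them, 130 and 133 bp wide and within 1 kb of each other, scored 5.26 and 4.84, at percentiles 95.9 and 94.0 of the replicate 1 peaks on 2L. Replicate 2 had no peak there: its single peak in the interval, 7 bp wide, was at 9437554. The 313 kb interval on 3L had no peak of either replicate.

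The single-replicate peaks inside the intervals were counted next. No peak crossed an interval end, and all peaks inside are unshared by construction. Replicate 1 had 565 peaks inside and replicate 2 had 201, which is 8.24% (7.60 to 8.91%) of the 6858 replicate 1 peaks on these arms and 3.90% (3.39 to 4.47%) of the 5152 replicate 2 peaks. The density of replicate 1 peaks was 12.9 per Mb inside (11.8 to 14.0) and that of unshared replicate 1 peaks over the rest of the arms was 40.5 per Mb (38.8 to 42.2). For replicate 2 the densities were 4.58 (3.97 to 5.26) and 13.8 per Mb (12.8 to 14.8). The ratio of inside to rest was 0.318 in replicate 1 and 0.332 in replicate 2, so the lists, which differ in their number of peaks, gave like ratios. When all peaks of the rest are counted, shared ones included, the rest had 117 per Mb in replicate 1 and 91.9 in replicate 2.

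The ratio was below 1 on every arm in both replicates. Inside the intervals of X replicate 1 had 9.55 peaks per Mb (7.62 to 11.8), against 41.6 for unshared peaks on the rest of X (38.2 to 45.1). On 3L it had 15.0 (12.8 to 17.4) inside and 43.1 (39.7 to 46.8) on the rest. On 2L it had 13.4 inside and 40.4 on the rest, and on 3R 12.8 and 37.3, so that inside the intervals both lay between X and 3L. Replicate 2 had 2.84 per Mb (1.84 to 4.20) inside and 13.7 (11.8 to 15.8) on the rest of X, and 5.89 (4.56 to 7.50) inside and 13.2 (11.3 to 15.3) on the rest of 3L. On 2L it had 4.86 and 15.7, and on 3R 4.34 and 13.1. In both lists X was lowest and 3L highest inside the intervals. The counting intervals of these 2 extremes did not overlap, which is not a test. In replicate 2 the lead of 3L came from intervals within 3 Mb of its centromere side, with 11.0 per Mb. Elsewhere replicate 2 had 4.59 per Mb on 3L, 4.57 on 2L, 4.54 on 3R and 2.48 on X. In replicate 1 the centromere-side densities were 14.5 on 2L, 9.85 on X, 9.70 on 3L and 5.03 on 3R. Away from the centromere side its densities were 16.3 on 3L, 13.6 on 3R, 13.2 on 2L and 9.47 on X. The lead of 3L thus came from different parts of the arm in the replicates.

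The density fell in steps as the interval between joined peaks grew longer. Short intervals hold only bases close to a joined peak, and the part of that distance in the fall was not tested. In intervals under 5 kb replicate 1 had 130.4 single-replicate peaks per Mb (117 to 145). It had 63.2 in those of 5 to 20 kb, 31.4 in those of 20 to 50 kb, 19.5 (17.2 to 22.0) in those of 50 to 75 kb, and the 12.9 given above in those of 75 kb or more. Replicate 2 had 44.4, 19.5, 11.9, 6.58 and 4.58 per Mb in the same classes. Each class was below the one before it in both replicates. Among the long intervals alone, replicate 1 had 18.0 per Mb (15.4 to 21.0) in those of 75 to 100 kb, 14.2 in those of 100 to 150 kb, and 9.32, 10.4 and 9.76 (6.91 to 13.4) in those of 150 to 200, 200 to 300 and over 300 kb. Replicate 2 showed no such order, with 5.42, 4.53, 3.86, 4.15 and 5.39 per Mb and counting intervals that overlapped throughout.

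**Figure D3:**
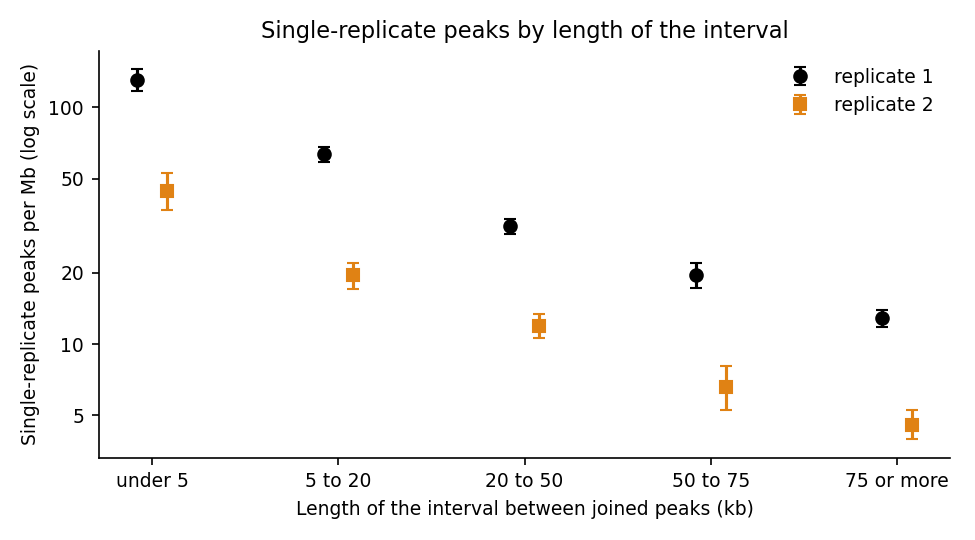
Single-replicate peaks per Mb (log scale, y axis) in intervals between joined peaks grouped by length (x axis), for replicate 1 (circles) and replicate 2 (squares), with exact 95% Poisson intervals. Density falls at each step in both replicates, to 12.9 and 4.58 per Mb in the long intervals.

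Single-replicate peaks inside the long intervals gathered near the ends. Within 1 kb of an interval end replicate 1 had 77 peaks, or 122 per Mb (96.2 to 152), and replicate 2 had 13, or 20.6 per Mb (11.0 to 35.2). From 1 to 5 kb the densities were 35.6 and 9.10 per Mb, and from 5 to 10 kb 20.3 and 6.33. More than 37.5 kb from either end they were 6.78 (5.69 to 8.01) and 3.66 (2.87 to 4.60). The fall with distance was steeper in replicate 1, and beyond 10 kb the replicate 2 densities of 4.27, 3.98 and 3.66 had overlapping intervals. An end is a joined peak by definition, and peaks that lie near it but do not overlap the other replicate count as inside. Without the outer 10 kb at each end the densities were 8.88 and 3.86 per Mb.

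**Figure D4:**
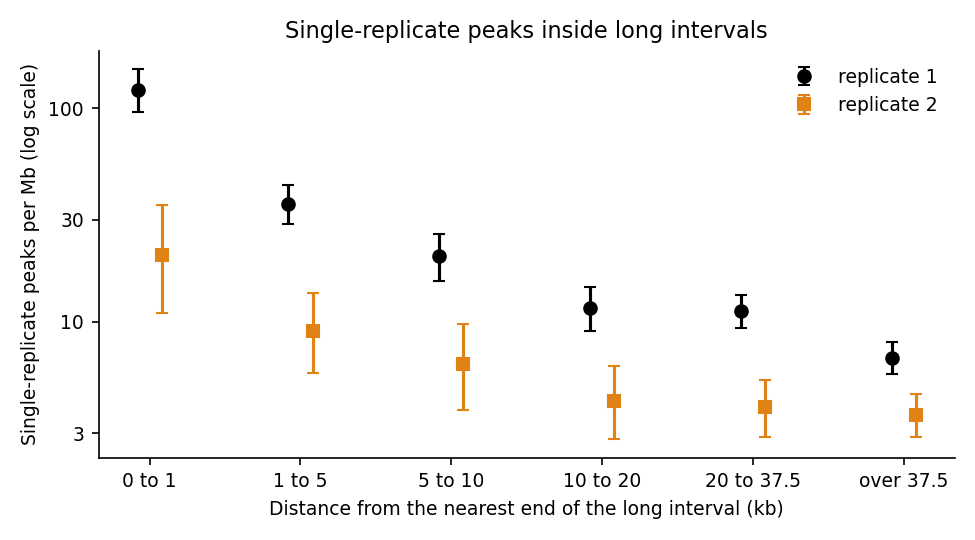
Single-replicate peaks per Mb (log scale, y axis) by distance from the nearest end of the long interval (x axis), for replicate 1 (circles) and replicate 2 (squares), with exact 95% Poisson intervals. Replicate 1 falls to 6.78 per Mb beyond 37.5 kb, against 122 per Mb in the outermost 1 kb.

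Of the 316 intervals, 79 (25%) had no replicate 1 peak and 177 (56.0%) had no replicate 2 peak. Both lists had a peak in 121 intervals, replicate 1 alone in 116, replicate 2 alone in 18, and neither in 61 (19.3%). The 61 free of peaks comprised 17 of the 83 on 2L, 10 of the 79 on 3L, 15 of the 92 on 3R and 19 of the 62 on X. As a share this was highest on X and lowest on 3L. The 61 had a median length of 103 kb, against 125 kb for the other intervals. After the 313 kb interval on 3L, the longest of them were 196 kb on 2L (5528124 to 5724579), 196 kb on 2L (6127697 to 6323989), 195 kb on 3R (24171258 to 24365908) and 185 kb on X (4618452 to 4802994). At most an interval held 11 replicate 1 peaks or 7 replicate 2 peaks, and 22 intervals held 5 or more of replicate 1 while 4 held 5 or more of replicate 2. Across the 316 intervals the 2 counts were weakly related, with a rank correlation (Spearman's rho) of 0.266 and a Pearson's r of 0.278. Densities per Mb gave rho of 0.262. Length enters both counts, and the replicates share the cell line and possibly the input, so the relation is a description.

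Many intervals held a long stretch free of single-replicate peaks. A stretch of at least 75 kb with no replicate 1 peak was present in 237 intervals (75%), and one with no replicate 2 peak in 268 (84.8%). In 209 intervals (66.1%) a stretch of that length was free of both. These counts take in the intervals with no such peak at all, which qualify by their length alone. Intervals without a peak numbered 79 for replicate 1, 177 for replicate 2 and 61 for both lists. Pooling both lists and applying the same threshold to every arm gave 224 stretches over 27.1 Mb, or 27.7% of the arms. All 224 lay inside long intervals of the joined list by construction, because joined peaks are made up of peaks of both lists. On single arms this share was 30.5% on 2L, 29.0% on X, 27.0% on 3R and 24.8% on 3L. By this stricter measure, too, X was not lowest, and 3L was. The longest were the 313 kb on 3L, 278 kb on 3L (4840850 to 5118478), 240.2 kb on 3L (22401187 to 22641350), 230.2 kb on 2L (21397450 to 21627688) and 227 kb on 3R (8548303 to 8775100).

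The replicates were also set against each other directly, in a comparison chosen after seeing the data. Long intervals were chosen from 1 list alone and all peaks of the other list were counted in them. The replicate 1 list gave 249 intervals over 31.5 Mb (32.2% of the arms), and replicate 2 had 108 peaks in them, or 3.43 per Mb (2.81 to 4.14), against 76.1 per Mb (74.0 to 78.2) over the rest. In 165 of the 249 (66.3%) replicate 2 had no peak. The replicate 2 list gave 277 intervals over 36.3 Mb, and replicate 1 had 390 peaks in them, or 10.8 per Mb (9.71 to 11.9), against 105 per Mb (103 to 108) over the rest. Here 94 of the 277 (33.9%) had none. The 2 sets of intervals had 27.7 Mb in common, which is 87.9% of the replicate 1 total and 76.3% of the replicate 2 total. Long stretches without peaks in 1 list thus had few peaks in the other, with a ratio of inside to rest of 0.0451 for replicate 2 peaks and 0.102 for replicate 1 peaks. No source used here says whether 1 input served for both lists, and the part of a common input in this was not tested.

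Single-replicate peaks inside the intervals were narrow. Their median width was 61 bp in replicate 1 (interquartile range 27.0 to 97.0) and 37 bp in replicate 2 (16.0 to 66.0). Unshared peaks on the rest of the arms had medians of 71 and 35 bp, and shared peaks had 179 and 123 bp. In replicate 1, 5.66% of the peaks inside (32 of 565) were at least 200 bp wide, against 11.2% (245 of 2180) of the unshared peaks elsewhere. In replicate 2 this was 2.99% (6 of 201) against 2.55% (19 of 744). Peaks under 10 bp made up 10.8% of those inside in replicate 1 and 19.4% in replicate 2, against 10.7% and 21.1% of unshared peaks elsewhere. Over the 4 arms together, the peaks inside were thus much like other peaks found once in width, apart from fewer wide ones in replicate 1. By arm, the replicate 2 medians inside and on the rest were 23 and 36.5 bp on 3R but 55 and 38 bp on X. They were 32.5 and 31 bp on 2L and 37 and 38 bp on 3L.

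Their scores were a little higher than those of unshared peaks elsewhere and below those of shared peaks. The median percentile within list and arm was 33.0 inside, 28.9 for unshared peaks on the rest and 61.5 for shared peaks in replicate 1. In replicate 2 the medians were 35.2, 28.8 and 53.4. On X in replicate 2 the order of the first 2 was turned round, with 34.6 inside and 37.3 on the rest. Peaks in the upper 10% of their list and arm numbered 33 of 565 (5.84%) inside in replicate 1, against 101 of 2180 (4.63%) elsewhere, and 17 of 201 (8.46%) against 50 of 744 (6.72%) in replicate 2.

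The highest-scoring single-replicate peaks were again narrow. In replicate 1 they had 7.97 on 3R (7094889 to 7094977, 89 bp), 7.86 on 3L (18610907 to 18610939, 33 bp), 7.63 on 2L (15118202 to 15118223, 22 bp) and 4.66 on X (822058 to 822144, 87 bp). The 3L peak was 0.376 kb from the end of its interval, and the 3R peak was 24.8 kb from the nearest end. In replicate 2 they had 8.77 on X (2660517 to 2660534, 18 bp), 7.84 on 2L (4661095 to 4661152, 58 bp), 7.71 on 3L (23090125 to 23090156, 32 bp) and 5.51 on 3R (26353620 to 26353632, 13 bp). The X peak lay 0.692 kb from the end of its interval, while the 2L peak lay 65 kb from the nearest end. Of these 8 peaks, 7 stood above percentile 95 of their list and arm, and the replicate 1 peak on X was at 93.5. None had an overlapping peak in the other replicate.

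Near misses between the replicates were few. Of the replicate 1 peaks inside, 48 of 565 (8.50%, 6.33 to 11.1%) had a replicate 2 peak of the same interval within 1 kb, as did 40 of the 201 replicate 2 peaks (19.9%, 14.6 to 26.1%) for replicate 1. Unshared peaks on the rest of the arms, where any peak of the other list within 1 kb was counted, had shares of 44.6% (42.5 to 46.7%) and 54.3% (50.6 to 57.9%). That comparison is affected by the choice of intervals, since joined peaks lie only outside them. The pairs within 1 kb were spread over 38 intervals, with a median distance of 176 bp. Within 100 bp the shares inside and on the rest were closer, at 3.54% (2.18 to 5.41%) and 4.36% (3.54 to 5.30%) in replicate 1, and 9.95% (6.18 to 14.9%) and 12.9% (10.6 to 15.5%) in replicate 2. In the closest pair on 2L, a replicate 1 peak of 168 bp ended at 7145865 and a replicate 2 peak of 56 bp began at 7145867. Such places fall just short of the rule that makes a joined peak, and a joined peak there would divide the interval.

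Intervals beside the centromere had relatively more replicate 2 peaks, a comparison chosen after seeing the data. In the 42 intervals whose nearer end was within 3 Mb of the centromere side of the arm, replicate 1 had 71 peaks, or 10.1 per Mb (7.87 to 12.7), and replicate 2 had 47, or 6.67 per Mb (4.90 to 8.87). In the other 274 the densities were 13.4 (12.2 to 14.6) and 4.18 per Mb (3.54 to 4.89). There were thus 1.51 replicate 1 peaks for each replicate 2 peak beside the centromere and 3.21 elsewhere. Much of this came from 3L, with 22 replicate 1 and 25 replicate 2 peaks beside the centromere. On 2L the counts there were 24 and 11, on X 19 and 8 and on 3R 6 and 3.

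The 316 intervals were bounded by 588 different joined peaks, 14.4% of the 4091 on these arms, of which 44 bounded a long interval on both sides. Flanking peaks were 174.5 bp wide at the median (interquartile range 117 to 283), against 195 bp (128 to 343) for the other 3503 joined peaks. Peaks of 500 bp or more made up 6.29% of the flanking peaks and 11.6% of the others. In the replicates, the median width was 166 bp for flanking and 183 bp for other joined peaks in replicate 1, and 121 and 126 bp in replicate 2. The narrower median was seen on each arm: 197 against 200 bp on 2L, 170 against 190 bp on 3L, 168 against 195 on 3R and 183.5 against 198 on X.

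Scores of the flanking peaks went the other way. Their median percentile among the joined peaks of their own arm was 56.3 (interquartile range 30.4 to 80.9), against 48.5 (24.4 to 74.1) for the other joined peaks. As deposited, the median scores were 3.02 and 2.84. In replicate 1, ranked among all peaks of that list and arm, the medians were 67.4 for flanking and 60.6 for other joined peaks, and in replicate 2 they were 59.7 and 52.9. By arm the percentiles were 58.5 against 47.5 on 2L, 57.6 against 48.1 on 3R, 53.9 against 49.1 on X and 50.1 against 49.8 on 3L, so on 3L the medians were nearly equal. The difference lay mostly at the top, since 90 of the 588 flanking peaks (15.3%, 12.5 to 18.5%) were in the upper 10% of their arm, against 9.11% (8.17 to 10.1%) of the others. In the lowest 10% were 9.01% and 10.2%. The 44 peaks with a long interval on both sides had a median percentile of 54.6 and a median width of 183.5 bp, and 20.5% of them were in the upper 10%.

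**Figure D5:**
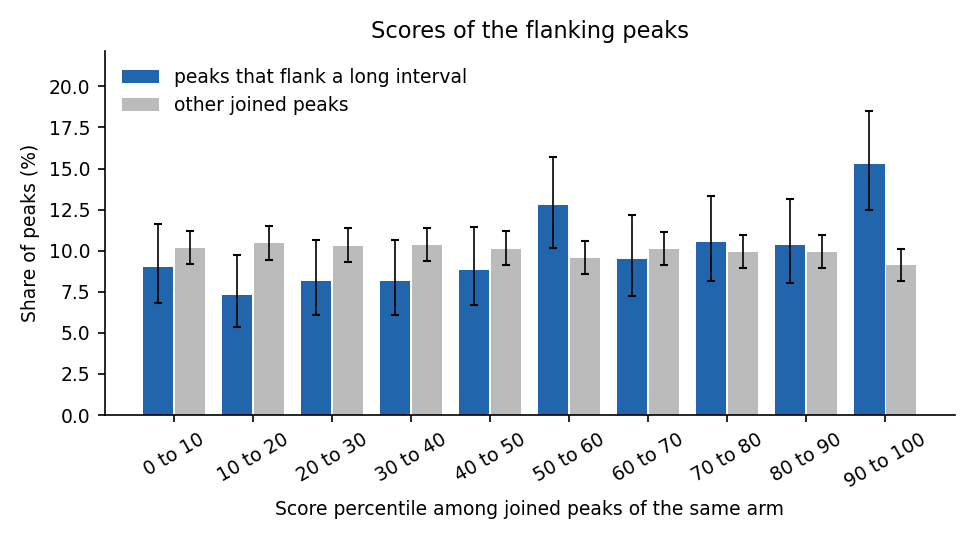
Share of peaks (y axis, %) by score percentile, in steps of 10, among the joined peaks of the same arm (x axis), for the 588 peaks that flank a long interval and for the other 3503 joined peaks, with exact 95% binomial intervals. The uppermost step holds 15.3% of the flanking peaks and 9.11% of the others.

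The highest-ranked flanking peaks were also the highest of their arms. On 3R, 12323226 to 12323302 is 77 bp wide, with 12.0 in replicate 1 and 16.0 in replicate 2. On X, 12861518 to 12861607 is 90 bp wide, with 17.8 over 11 bp in replicate 1 and 10.4 over 90 bp in replicate 2. On 2L, 11948580 to 11948737 is 158 bp wide, with 9.63 and 14.3. The peaks on 3R and X were narrower than the flanking median, while the width of the peak on 2L was close to it.

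The 2 flanks of 1 interval were not related in score, with Spearman's rho of -0.0245 over 316 intervals. In 103 intervals both flanks were in the upper 50% of their arm and in 50 both were in the lower. On the far side of the flank, the next joined peak stood at a median of 16.5 kb (interquartile range 3.78 to 47.9 kb), against 8.42 kb for the median over all intervals on these arms. It was within 5 kb at 182 of the 631 interval ends that have a further peak (28.8%), against 40.1% of all intervals. It was 75 kb or more away at 88 (13.9%), against 7.73% of all intervals. In the 50 kb outward of an end there was a median of 3 joined peaks, the flank included. At 156 of 632 ends (24.7%) the flank stood alone there, and at 27 ends (4.27%) there were 10 or more joined peaks. For the other joined peaks, the 50 kb to the right held a median of 4, the peak itself included. Of those peaks, 7.02% had 10 or more. By the rule, none of the other peaks has an interval of 75 kb or more beside it, while 88 interval ends do on their far side. The choice of the groups thus sets part of this contrast.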

How the data were processed

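ORC2 ChIP-seq peak lists of Kc167 cells were used, 1 for each of 2 ChIP replicates and 1 for the whole series. PeakSeq is named in the source column and FlyBase release 5 as the build, per the file headers. The aligner, the PeakSeq version, the threshold and the read depth were not given in the sources used here. Scores are as the authors deposited them, with no stated unit. The members and lists described here were chosen with earlier results of these data known.

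From the lists, intervals between consecutive joined peaks were measured as the start of the next peak minus the end of the last, and those of 75000 bp or more were kept. A peak counted as inside when its whole length was. Shared means an overlap of at least 1 bp. Arm length was the largest peak end in any list. Percentiles are mid-ranks within list and arm. Named intervals were the 10 longest, the longest of each arm, those with most peaks and the 5 longest with none. Named peaks were the flanks of the 5 longest intervals, the highest-scoring single-replicate peak of each arm and the 3 highest-ranked flanks. The closest pair, the runs and the stretches without long intervals were picked after their values were seen. No test was run, because both replicates feed the list that chose the intervals. The functions were tested on simulated data with planted intervals. Alternatives were other minimum lengths, single and pooled lists, filters on width and score, and trimmed ends. Gene names and sequences were not used, because the available gene table uses release 6. The tools were numpy 2.4.6, scipy 1.17.1, pandas 2.3.3 and, for figures, matplotlib 3.10.9, under Python 3.11.15.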

Additional observations from a re-analysis of the deposited data

How the results depend on the processing

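The number and extent of the intervals depend on the minimum length. At 50 kb there were 540 intervals over 57.6 Mb and at 100 kb 210 over 34.9 Mb. From the replicate 2 list alone, without replicate 1, there were 277 over 36.3 Mb, and without replicate 2 there were 249 over 31.5 Mb. Pooled lists gave 27.1 Mb and the higher-scoring 50% of joined peaks 61.1 Mb. By construction these lists differ in how many peaks divide the arms. Single-replicate peaks inside stood at 11.5 per Mb for replicate 1 in intervals of at least 100 kb and at 11.5 with peaks within 1 kb counted as 1. With peaks of at least 50 bp the densities were 7.56 and 1.80 per Mb in replicates 1 and 2, with peaks above the median score 4.21 and 1.55, and with 10 kb trimmed from each end 8.88 and 3.86. The ratio of inside to rest was 0.288 and 0.343 with peaks of at least 50 bp, and 0.356 and 0.336 above the median score. The same 588 flanking peaks of the joined list, not chosen anew, had a median width of 121 bp by replicate 2 values and 166 bp by replicate 1 values. Their median percentile was 59.7 in replicate 2 and 67.4 in replicate 1, where unshared peaks are also ranked. The centromere-side share of interval length was 6.54% for 1 Mb and 23.6% for 5 Mb, which make up 4.09% and 20.4% of the arms, and for 3 Mb it was 14.7% without replicate 1 and 16.5% without replicate 2. No paired analysis was possible because the 2 ChIP samples form 1 group and the input sample was not analysed here. Depth is unknown, so a stretch without peaks shows no called peak and not an absence of ORC2.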
